A study of Mus musculus with 6 samples.

Results

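The genes described here encode the enzymes that build and desaturate long-chain fatty acids: ACLY, ACACA, FASN, SCD, SCD5, ELOVL6, FADS1, FADS2, ACSL3 and ME1. These 10 genes were taken by name for their place in the pathway, and 9 of them were measured by a probe set annotated to a single gene, out of 18417 genes measured in this way. ACSL3, an acyl-CoA synthetase, was not analysed here. Each of the 9 genes had 1 such probe set.

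The samples were xenografts of SK-N-BE(2), an established human neuroblastoma line with amplified MYCN, placed in the adrenal gland of NSG mice, which have no mature lymphocytes. The 3 BL-8040 tumours came from mice given the peptide CXCR4 antagonist BL-8040 at 400 µg subcutaneously for 14 days in a row, from day 7 after injection of the cells. The 3 control tumours came from NSG mice with the same graft, while their own injections and the age of the animals are not given here. All tumours thus derive from 1 cell line, and the human array reads host transcripts only where mouse RNA binds human probes.

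Fatty acid synthesis starts in the cytosol when ATP citrate lyase (ACLY) cleaves citrate to acetyl-CoA. Acetyl-CoA carboxylase alpha (ACACA) turns this into malonyl-CoA, and fatty acid synthase (FASN) joins the units into palmitate with NADPH, part of which malic enzyme (ME1) supplies. ELOVL6 lengthens palmitate, the stearoyl-CoA desaturases SCD and SCD5 introduce the first double bond, and FADS1 and FADS2 add further double bonds to polyunsaturated chains. Many of these genes are known targets of the transcription factor SREBP1, and MYCN-driven neuroblastoma cells have been reported to rely on lipid synthesis.

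Each array gave 1 log2 signal per probe set, and the array medians over the 18417 genes lay between 6.01 and 6.07. BL-8040 replicate 3 stood apart on the first principal component, at -22.7 against -0.74 to 10.1 in the other 5 arrays. Of 13 neuroblastoma markers, 11 were at or above the median signal of all genes. In BL-8040 tumours 12 of the 13 were lower and 1 higher, with a median difference of -0.22 log2 units, and -0.14 without BL-8040 replicate 3. Of all 18417 genes, 10781 were lower and 7636 higher. In 12 of these 13 markers the lowest value was that of BL-8040 replicate 3, and their mean log2 signal was 8.14 to 8.68 in BL-8040 tumours and 8.55 to 8.85 in controls. Adipocytes of the host also make fatty acids. None of 10 adipocyte markers reached the median signal. They ranged from percentile 3.56 of all genes (FABP4) to 48.3 (RETN), with ADIPOQ at 17.4 and PLIN1 at 42.6. The mean log2 signal of the list was 4.37 to 4.51 in BL-8040 tumours and 4.47 to 4.52 in controls. In BL-8040 tumours 5 of the 10 were higher and 5 lower, 2 of them (CIDEA and LEP) without overlap, against 9.05% of all genes. Of 10 adrenal cortex markers, 2 reached it (FDX1 and SCARB1, which other cells also express), and the list mean was 4.79 to 4.85 in BL-8040 tumours and 4.78 to 4.82 in controls. How much host RNA entered the values of the fatty acid genes was not tested.

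The comparison asked which of these genes differed after CXCR4 inhibition. The desaturase SCD5 stood lower in all 3 BL-8040 tumours, at 0.877 times the control level, while FADS1 and FADS2 stood 1.09-fold and 1.11-fold higher and ACACA and ELOVL6 1.09-fold and 1.08-fold higher. The synthase FASN, the desaturase SCD, the malic enzyme ME1 and ACLY were between 0.964 and 0.981 times the control level. None of these differences passed the test. After Benjamini-Hochberg adjustment in limma, p was under 0.05 for 0 of 9 members and for 0 of 18417 genes (0%), and the lowest value of a member was an adjusted p of 0.644. At an unadjusted p under 0.05, 0 members were higher and 1, SCD5, was lower, against 2.64% and 5.08% of all genes. All 9 members were at or above the median signal. In a fit of only such genes, 352 of 9209 were higher and 362 lower at this p. The 3 BL-8040 values lay wholly above the controls in 1 member (FADS1) and wholly below in 1 (SCD5), against 4.93% and 9.05% of all genes. Over the 9 members, 4 were higher and 5 lower, against 7636 and 10781 of all 18417 genes. The median difference was -0.03 log2 units over the members and -0.02 over all genes. Without BL-8040 replicate 3 these medians were 0.04 and -0.01. Since tissue RNA was pooled over all cells of a tumour, fewer cells that express a gene and less of its RNA per cell cannot be told apart.

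**Figure D1:**
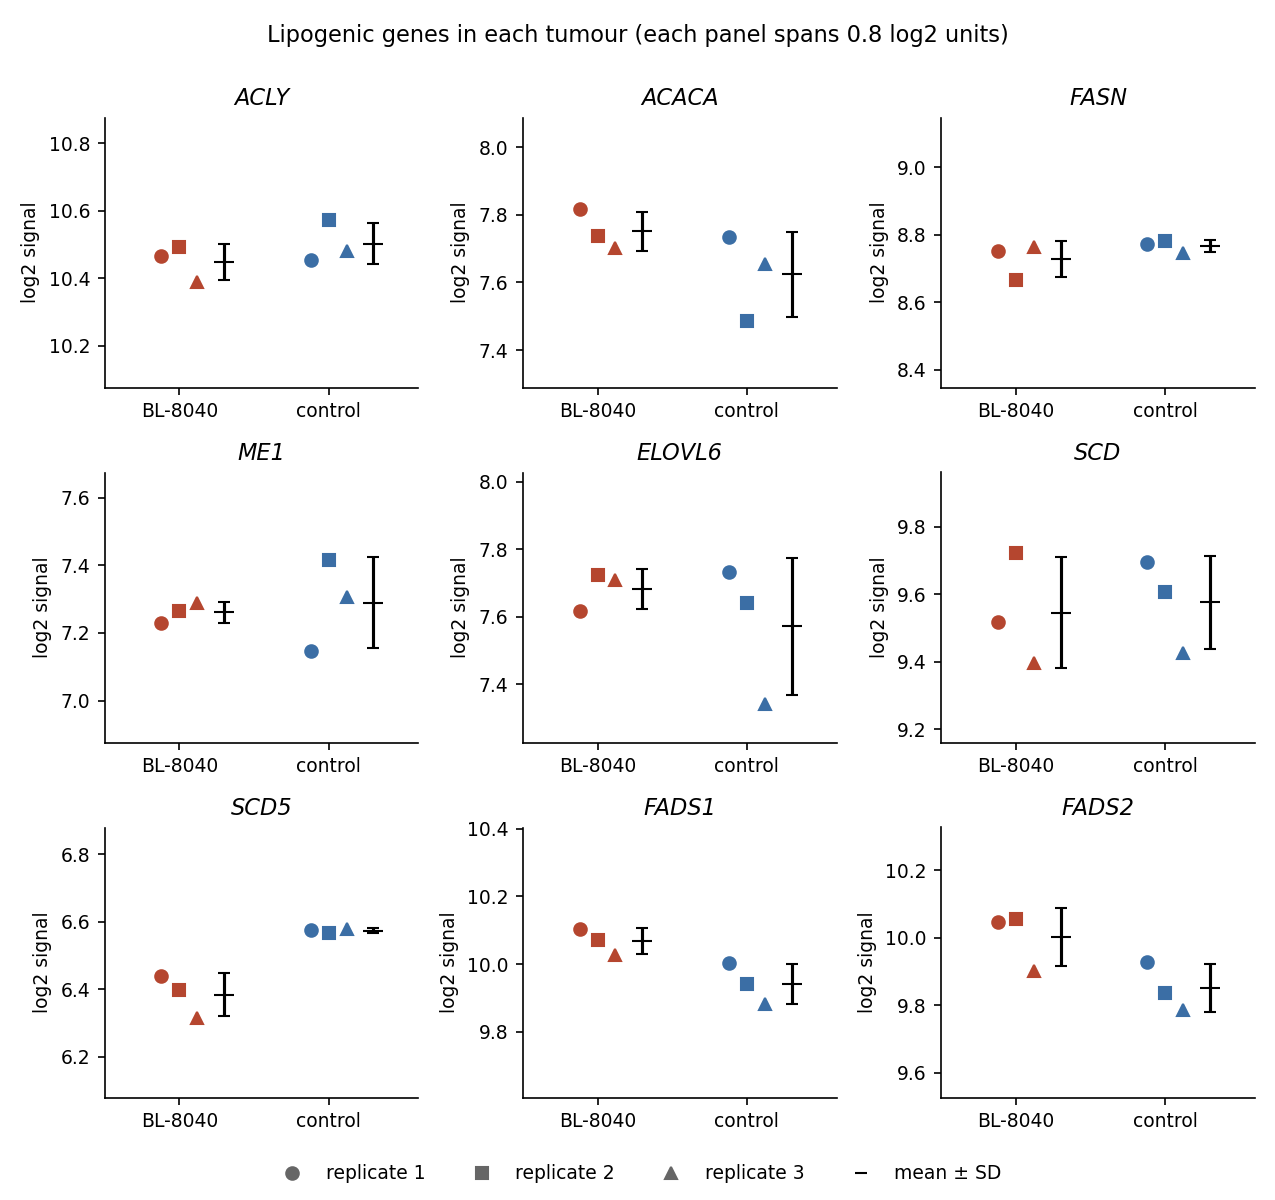
Log2 signal of the 9 measured lipogenic genes in each tumour, BL-8040 (red) left of control (blue), with the mean ± SD of 3 arrays beside the points and 0.8 log2 units on every vertical axis. The BL-8040 points lie wholly below the controls for SCD5 and wholly above for FADS1, and the groups overlap in the other 7 genes.

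At the head of the pathway, ACLY read 10.46, 10.49 and 10.39 in BL-8040 replicates 1, 2 and 3, against 10.46, 10.57 and 10.48 in the controls. The groups overlapped, with the lowest value in BL-8040 replicate 3 and the highest in control replicate 2. The ACLY difference was -0.05 ± 0.07 log2 units (SE, limma adjusted p = 0.849), with a 95% interval from 0.861 to 1.08 times the control level. ME1 read 7.23, 7.26 and 7.29 in BL-8040 tumours, against 7.15, 7.42 and 7.31 in controls, so that the treated values fell inside the range of the controls. Its difference was -0.03 ± 0.08 (SE, limma adjusted p = 0.932), and its SD was 0.03 in BL-8040 tumours and 0.13 in controls. The sign of the ME1 difference turned to 0.03 without control replicate 2.

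ACACA, the carboxylase that commits acetyl-CoA to fatty acid synthesis, read 7.82, 7.74 and 7.70 after BL-8040, against 7.73, 7.49 and 7.65 in controls. Only control replicate 1 reached the treated range, and the lowest value was that of control replicate 2. The mean was 7.75 ± 0.06 in BL-8040 tumours and 7.62 ± 0.13 in controls (SD, n = 3 each), a difference of 0.13 ± 0.08 (SE, limma adjusted p = 0.703). Without control replicate 2 the ACACA difference was 0.06. FASN, the next enzyme, read 8.75, 8.67 and 8.76 in BL-8040 tumours, against 8.77, 8.78 and 8.75 in controls. It varied least of the 9 members within groups, with an SD at percentile 4.19 of all genes. Its difference was -0.04 ± 0.07 (SE, limma adjusted p = 0.885). The 95% interval ran from 0.875 to 1.08 times the control level.

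ELOVL6, the elongase of palmitate, read 7.62, 7.72 and 7.71 in BL-8040 tumours, against 7.73, 7.64 and 7.34 in controls. The groups overlapped, and control replicate 3 was the lowest of the 6 arrays. The ELOVL6 difference of 0.11 ± 0.10 (SE, limma adjusted p = 0.780) was -0.0041 without control replicate 3.

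SCD, the main stearoyl-CoA desaturase, read 9.52, 9.72 and 9.40 after BL-8040, against 9.70, 9.61 and 9.43 in controls. High and low values occurred in both groups, with an SD of 0.16 in BL-8040 tumours and 0.14 in controls. The SCD difference was -0.03 ± 0.11 (SE, limma adjusted p = 0.943), with a 95% interval from 0.830 to 1.16 times the control level. It turned to 0.04 without BL-8040 replicate 3 and to 0.03 without control replicate 1. A processed pseudogene of SCD is known in the human genome, and whether its transcripts reach the SCD probe set was not tested.

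SCD5, the second human stearoyl-CoA desaturase and known for its expression in brain, read 6.44, 6.40 and 6.31 in BL-8040 tumours, against 6.58, 6.57 and 6.58 in controls. All 3 treated values lay below all controls, with a gap of 0.13 between the groups. The neuroblastoma markers, with 12 of 13 lower in BL-8040 tumours, moved the same way, and their part in the SCD5 difference was not tested. The mean was 6.38 ± 0.06 in BL-8040 tumours and 6.57 ± 0.01 in controls (SD, n = 3 each), a difference of -0.19 ± 0.07 (SE). This difference had the smallest p of the members (0.0233, rank 638 of 18417 genes) but did not pass in limma after adjustment (adjusted p = 0.644). BL-8040 replicate 3 had the lowest SCD5 value, and without it the difference was -0.15. With 1 array left out the SCD5 difference lay between -0.22 and -0.15. Its unadjusted p was under 0.05 in 11 of the 14 alternative fits, but only 9 of the 14 can move the difference. It missed 0.05 without BL-8040 replicate 2, without BL-8040 replicate 3 and without control replicate 1.

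SCD and SCD5 catalyse the same reaction, so the change of one was set against that of the other within each array. The SCD minus SCD5 difference, relative to its mean over the 6 arrays, was -0.0032, 0.24 and -0.00048 in BL-8040 tumours, against 0.04, -0.04 and -0.24 in controls. The groups overlapped, and BL-8040 replicate 2 was the highest and control replicate 3 the lowest. In the mean it stood 0.16 log2 units higher in BL-8040 tumours than in controls, with an SD of 0.14 in either group and an exact two-sided permutation p of 0.4 (0.6 after Benjamini-Hochberg adjustment over 2 pairs), where 3 against 3 arrays cannot give less than 0.1. A p under 0.05 was thus out of reach of the permutation test, whatever the values. Its result does not decide whether the changes of the 2 desaturases differ.

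**Figure D2:**
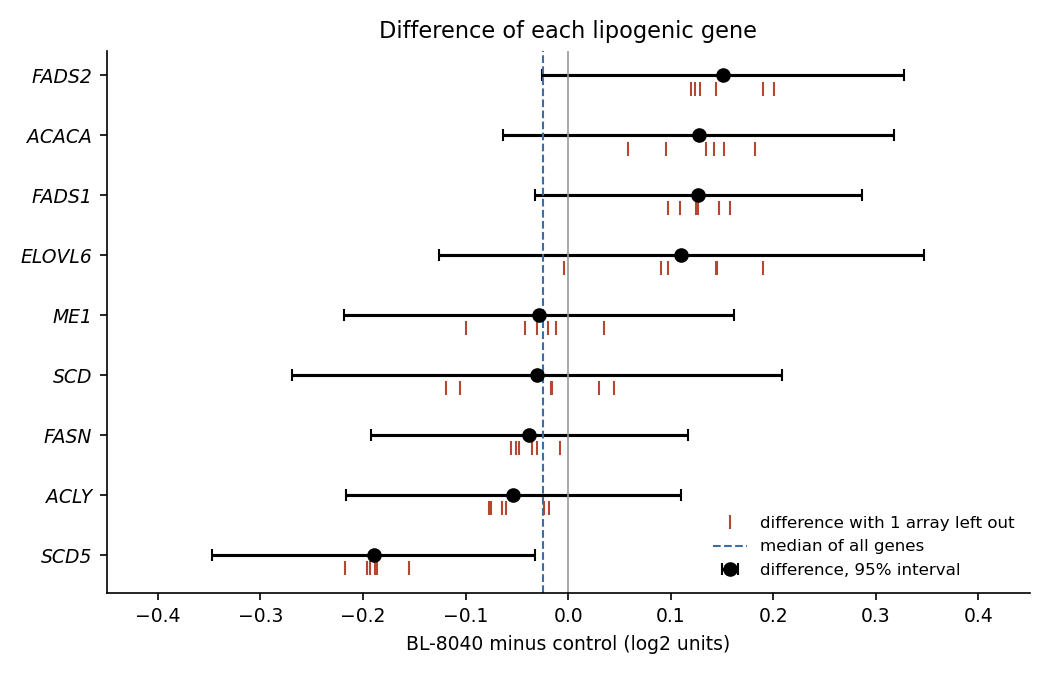
Difference of each member, BL-8040 minus control in log2 units, with its 95% interval (black) and the 6 differences with 1 array left out (red ticks), and the median of all genes as a dashed line. The interval of SCD5 lies below 0, those of the other 8 genes include 0, and the ticks of SCD, ME1 and ELOVL6 fall on both sides of 0.

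FADS1, the delta-5 desaturase, read 10.10, 10.07 and 10.03 in BL-8040 tumours, against 10.002, 9.94 and 9.88 in controls. The lowest treated value, that of replicate 3, exceeded the highest control by 0.02. The mean was 10.07 ± 0.04 in BL-8040 tumours and 9.94 ± 0.06 in controls (SD, n = 3 each), a difference of 0.13 ± 0.07 (SE, limma adjusted p = 0.665) with a 95% interval from 0.978 to 1.22-fold. FADS2, the delta-6 desaturase, which acts before FADS1 on the same chains, read 10.05, 10.06 and 9.90, against 9.93, 9.84 and 9.79 in controls. BL-8040 replicate 3 lay below control replicate 1, and the other treated values lay above all controls. The FADS2 difference was 0.15 ± 0.08 (SE, limma adjusted p = 0.656), the highest of the 9 members, with an interval from 0.983 to 1.26-fold.

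With 1 array left out, the FADS1 difference lay between 0.10 and 0.16 and that of FADS2 between 0.12 and 0.20, above 0 in each case. Their unadjusted p of 0.106 and 0.0847 went below 0.05 in 2 of 14 alternative fits for FADS1 and in 5 of 14 for FADS2. These included quantile normalization, with 0.0438 for FADS1 and 0.0481 for FADS2. FADS3, which lies beside FADS1 and FADS2 in the human genome and was named for that place, differed by 0.0041 ± 0.08 (SE). The FADS1 minus FADS2 difference changed by -0.02 log2 units in BL-8040 tumours relative to controls (exact two-sided permutation p = 0.6, and 0.6 adjusted over 2 pairs).

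The members did not move as one group over the 6 tumours. Of 36 pairs, 17 correlated above 0 and 19 below 0 over the 6 arrays, with a median Pearson r of -0.06. All points share their array, and group differences enter these values, which are given as a description. The highest correlation was that of FADS1 with FADS2 (r = 0.957), and the lowest that of ACACA with ME1 (r = -0.829). ACACA correlated best with FADS2 (r = 0.725), ELOVL6 with FADS1 (0.673), SCD with ELOVL6 (0.555), and ACLY and SCD5 with each other (0.607). ME1 correlated best with ACLY (0.585) and FASN with SCD5 (0.382). At the other end, SCD5 correlated lowest with FADS1 (-0.677), ACLY with ACACA (-0.673), FADS2 and FASN with each other (-0.580), ELOVL6 with SCD5 (-0.463) and SCD with FASN (-0.394).

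**Figure D3:**
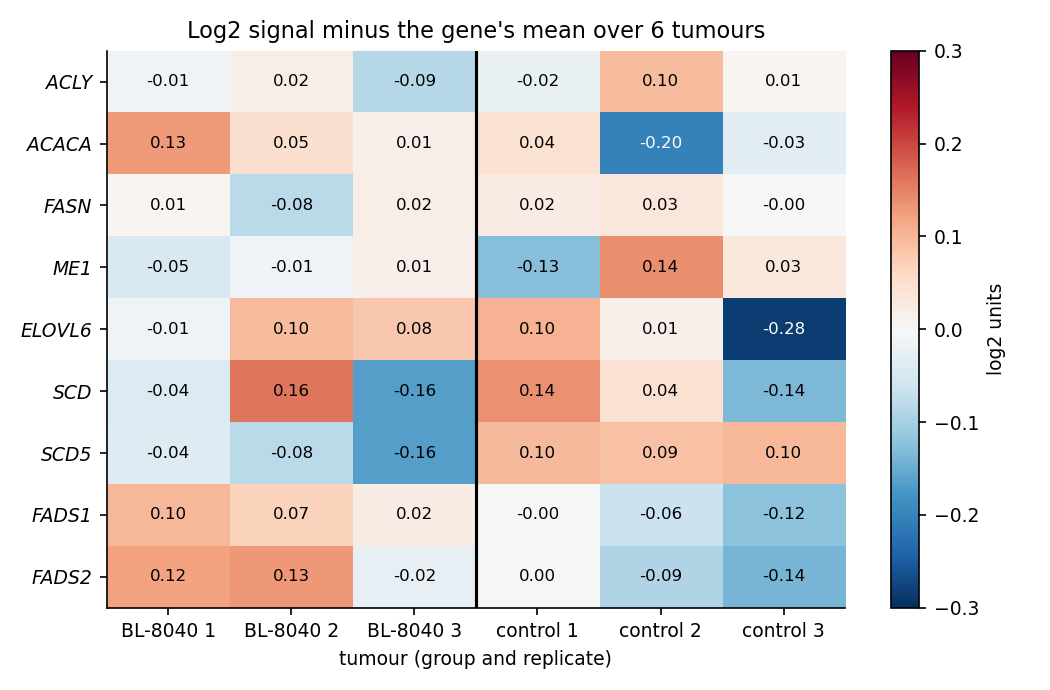
Log2 signal of each member minus its own mean over the 6 tumours, with BL-8040 replicates left of the line and controls right of it. FADS1 and FADS2 share their pattern, SCD5 is below its mean in the 3 BL-8040 tumours, and control replicate 3 holds the lowest ELOVL6 value (-0.28).

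Averaged over the 9 members, the deviation from each gene's own mean was 0.02, 0.04 and -0.03 in BL-8040 replicates 1, 2 and 3, against 0.03, 0.01 and -0.06 in the controls. Replicate 3 was thus the lowest in both groups, and the groups overlapped. Among 9200 other genes at or above the median signal, those most like this mean profile over the 6 arrays were WDR75 (r = 0.995), AZIN1 (0.994), LDAH (0.989), CDK2AP1 (0.982) and CHEK1 (0.980), and 193 of the 9200 had an r of at least 0.9. LDAH encodes a hydrolase of lipid droplets, and read 6.38, 6.43 and 6.16 in BL-8040 tumours against 6.36, 6.31 and 6.10 in controls.

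Of 17 measured regulators of these genes in a list of 18, 9 were higher and 8 lower, with a median difference of 0.00023, and -0.0075 without BL-8040 replicate 3. At an unadjusted p under 0.05, 0 were higher and 0 lower, against 2.64% and 5.08% of all genes. SREBF1, which encodes SREBP1, read 6.63, 6.79 and 6.46 in BL-8040 tumours, against 6.65, 6.80 and 6.74 in controls. Its difference was -0.11 ± 0.09 (SE, limma adjusted p = 0.766), and it was -0.03 when BL-8040 replicate 3 was left out and -0.19 when BL-8040 replicate 2 was. INSIG1, which retains the SREBP complex in the endoplasmic reticulum and is itself an SREBP target, read 7.09, 7.05 and 7.09, against 7.04, 6.98 and 6.84 in controls, with all treated values above the controls. The INSIG1 difference was 0.12 ± 0.08 (SE, limma adjusted p = 0.686), and 0.07 without control replicate 3. LPIN1, a phosphatidate phosphatase that restrains SREBP1 in mouse cells, differed by -0.21 ± 0.10 (SE), and by -0.10 without BL-8040 replicate 3.

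Upstream of the pathway, 8 of 19 measured genes of precursor and NADPH supply were higher and 11 lower, with a median difference of -0.03, and -0.01 without BL-8040 replicate 3. ACSS1, the mitochondrial acetyl-CoA synthetase, read 5.88, 6.09 and 5.83 in BL-8040 tumours, against 6.15, 6.30 and 6.28 in controls, a level 0.806 times that of the controls with no overlap. Its unadjusted p was 0.0072 and its adjusted p 0.644 (limma). The citrate synthase gene CS stood at 0.908 times the control level, also without overlap (9.35, 9.31 and 9.35, against 9.52, 9.51 and 9.40). ME3, a mitochondrial malic enzyme, differed by -0.21, by -0.10 without BL-8040 replicate 3 and by -0.14 without control replicate 2. In mitochondrial fatty acid synthesis, 4 of 9 genes were higher and 5 lower. The lipoyltransferase gene LIPT1 stood 1.19-fold higher, the ketoacyl synthase gene OXSM at 0.922 times and the enoyl reductase gene MECR at 0.925 times the control level. OXSM differed by -0.12, and by -0.06 without BL-8040 replicate 3.

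Among 17 other elongation and desaturation genes, 6 were higher and 11 lower, with a median difference of -0.02, and -0.06 without BL-8040 replicate 3. Those higher without overlap were 4 of 17, against 4.93% of all genes: ELOVL4 by 0.22 ± 0.08 and HSD17B12, the ketoacyl reductase of the elongation cycle, by 0.20 ± 0.09 (SE), with ELOVL5 (0.09) and ELOVL1 (0.09), picked out once their values were known. These 4 genes lay at signal percentiles from 60.9 (ELOVL4) to 99.3 (ELOVL5) of all genes. Other elongation genes of the list differed on the other side of 0, among them the bright TECR (-0.14, percentile 98.7) and HACD2 (-0.02, percentile 94.8). Dim genes on that side were HACD4 (-0.13, percentile 0.999), ELOVL3 (-0.105, percentile 9.40), ELOVL7 (-0.07, percentile 15.0) and ELOVL2 (-0.05, percentile 7.88). None passed (limma adjusted p of 0.644 for ELOVL4 and 0.646 for HSD17B12), and the HSD17B12 difference was 0.11 without control replicate 3. FADS6 differed by -0.26 ± 0.11 (SE). Of 14 other acyl-CoA synthetases and fatty acid transport proteins, 7 were higher and 7 lower. ACSL4, which prefers arachidonic acid, read 5.998, 5.80 and 6.18 in BL-8040 tumours, against 5.62, 5.77 and 5.60 in controls. All 3 treated values lay above the controls, at 1.26-fold (limma adjusted p = 0.644). ACSF3, the malonyl-CoA synthetase of mitochondria, stood at 0.896 times the control level without overlap, and SLC27A2 differed by 0.24, but by 0.05 without BL-8040 replicate 3.

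The cholesterol pathway, which shares SREBP control, had 14 of 17 measured genes higher and 3 lower, with a median difference of 0.11 log2 units, against 4 of 9 and -0.03 for the fatty acid genes. These lists were not tested against each other. Its median, relative to each gene's mean, was 0.02, 0.06 and 0.04 in BL-8040 tumours, against -0.0042, -0.07 and -0.15 in controls. That of the fatty acid genes was -0.01, 0.05 and 0.01, against 0.02, 0.03 and -0.03 in controls. Cytosolic acetyl-CoA feeds both pathways. ACAT2, which makes acetoacetyl-CoA from it for the sterol branch, stood 1.26-fold higher, HMGCS1 1.23-fold and the sterol oxidase gene MSMO1 1.19-fold, each without overlap and with a limma adjusted p of 0.644.

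Downstream, 5 of 23 genes of glycerolipid assembly, lipid droplets and lipolysis were higher and 18 lower, with a median difference of -0.08, which was -0.03 without BL-8040 replicate 3. PNPLA3, a lipid droplet lipase that SREBP1 is known to induce, read 6.22, 6.26 and 6.24 in BL-8040 tumours, against 6.03, 6.005 and 5.84 in controls, a 1.22-fold level with no overlap (limma adjusted p = 0.644). GPAT3 stood at 0.841 times the control level without overlap, at a dim signal (percentile 8.75 of all genes). The hormone-sensitive lipase gene LIPE stood at 0.870 times, with overlap. The LIPE difference of -0.20 was -0.13 without control replicate 3 and -0.32 without control replicate 1. Of 25 genes of fatty acid oxidation, 9 were higher and 16 lower, with a median difference of -0.02, and -0.01 without BL-8040 replicate 3. ACADS, the short-chain acyl-CoA dehydrogenase, differed by -0.28 ± 0.12 (SE) and HADHA, a subunit of the trifunctional protein, by -0.17 ± 0.08, both without overlap. ETFA, an electron carrier subunit, differed by 0.13 ± 0.08, with overlap. Without BL-8040 replicate 3 the ACADS difference was -0.16, and without control replicate 3 that of ETFA was 0.09. Among 10 genes of uptake and binding, 4 were higher and 6 lower. DBI, the acyl-CoA binding protein, stood 1.20-fold higher, FABP3 at 0.854 times the control level and the lipoprotein receptor gene VLDLR at 0.879 times. In each of these 3 genes the groups did not overlap, against 4.93% of all genes higher and 9.05% lower in this way. The VLDLR difference of -0.19 was -0.08 without control replicate 2.

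**Figure D4:**
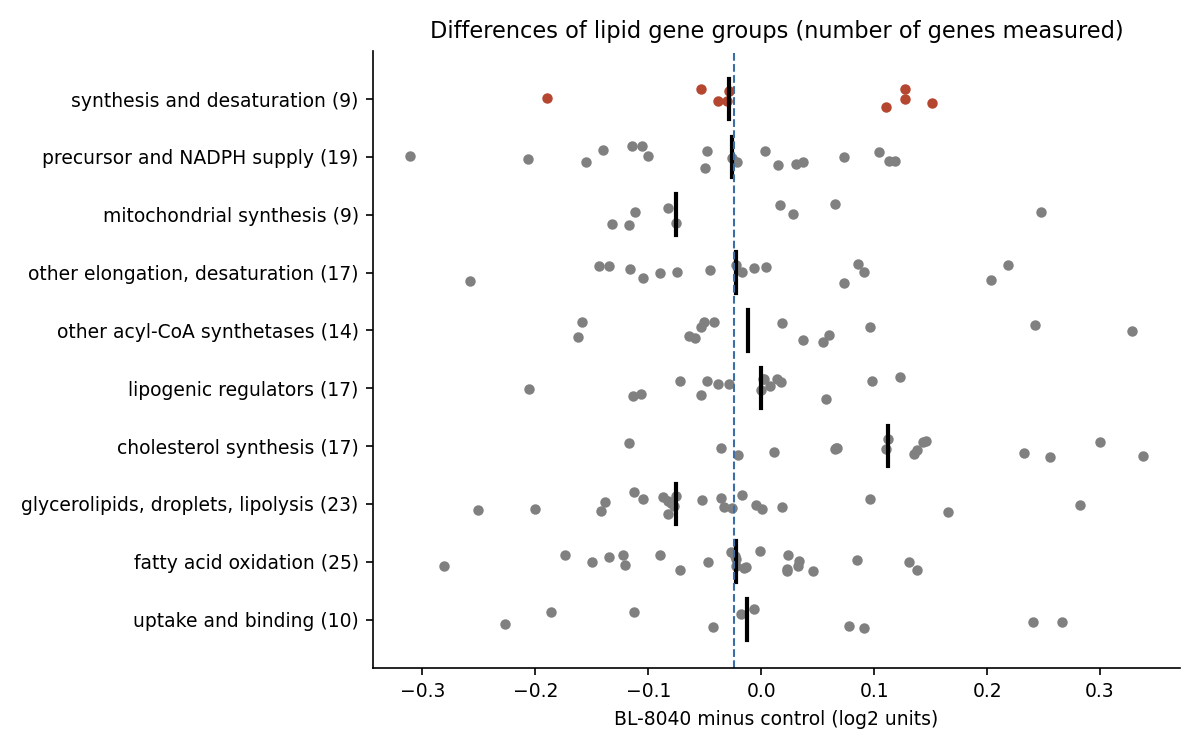
Difference of each measured gene, BL-8040 minus control in log2 units, for the fatty acid synthesis and desaturation genes (red) and 9 other lipid gene groups (grey), with black bars at the group medians, a dashed line at the median of all genes (-0.02) and the number of genes in brackets. The median of the fatty acid genes (-0.03) lies beside that of all genes, and the cholesterol genes have the highest median (0.11).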

How the data were processed

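RNA from 6 tumours was read on 1 Affymetrix Human Gene 1.0 ST array each, per the series' design text. The authors deposited 1 table of log2 values, whose scale was read from the values. Partek 6.6 appears in the submitters' processing notes, with no word in these sources on background correction, normalization or how probes were summarized. Detection calls were not used here, and the signal percentile is given for some genes only. Other dim genes named above include SLC27A2 (percentile 7.37 of all genes), FABP3 (22.2), VLDLR (27.4) and LIPE (31.1).

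Gene names came from the platform annotation. Probe sets with several symbols (1754) or unnamed here (12083) were left out, and the brightest probe set of each gene over 6 arrays was kept. Groups and replicate numbers came from the sample titles, and the design text names 3 mice per group.

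BL-8040 was compared with control over all 18417 genes with limma 3.58.1 in R 4.3.3 (lmFit and eBayes, two-sided, no block, Benjamini-Hochberg adjustment), a fit that was tested on simulated data. SE is moderated. Precision is limited by how few arrays there are, with 95% intervals of the members reaching 0.155 to 0.239 log2 units to each side. Alternatives were 2 filters on dim genes, the mean of probe sets, quantile normalization, median centring, array weights, eBayes with a robust variance trend, a replicate block and leaving out each array.

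The members and lists were chosen with earlier results of these data known. The text names all members, the 3 genes with the smallest p in each of 9 other lipid lists, the 5 genes most like the members' mean profile, and for each member the others with the highest and lowest correlation. Marker lists not described above gave 3 of 10 endothelial, 7 of 10 fibroblast, 6 of 10 myeloid and 0 of 6 liver and kidney markers higher in BL-8040 tumours. At or above the median signal were 1, 8, 2 and 0 of these markers, in the same order. The mean log2 signal of the fibroblast list was 7.58 to 7.95 in BL-8040 tumours, highest in replicate 3, and 7.57 to 7.69 in controls. Of 13 measured hypoxia genes 0 were higher, each with its lowest value in BL-8040 replicate 3.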

Additional observations from a re-analysis of the deposited data

How the results depend on the processing

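By limma's adjusted p, 0 genes were called in each of the 14 alternatives, and among the members the lowest adjusted p ranged between 0.50 and 0.896. A member's difference can move in 9 of these alternatives, since the dim filters, the mean of probe sets, the variance trend and the replicate block leave it as it is. Of the 81 values that moved, 77 kept their direction. The exceptions, each with 1 array left out, were SCD (0.0443 without BL-8040 replicate 3 and 0.0299 without control replicate 1, range -0.119 to 0.0443), ME1 (0.0346 without control replicate 2, range -0.0994 to 0.0346) and ELOVL6 (-0.0041 without control replicate 3, up to 0.190). The FADS1 minus FADS2 change was 0.000525 without BL-8040 replicate 2, and otherwise as low as -0.0536. The median of the members turned from -0.03 to 0.04 without BL-8040 replicate 3, to 0.03 without control replicate 1 and to 0.03 without control replicate 2. These signs rest on single arrays.

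At an unadjusted p under 0.05, 487 genes were higher and 935 lower. This split was 713 and 677 after quantile normalization and 668 and 690 after median centring. With dim genes removed, which leaves fewer genes to test, 362 or 371 were lower, and without control replicate 2, 578. For the members, 2 were higher at this p after quantile normalization or with the variance trend (FADS1 and FADS2), and 1 after median centring, with array weights or without BL-8040 replicate 3 (FADS2). SCD5 missed it without BL-8040 replicate 2, without BL-8040 replicate 3 and without control replicate 1. Same-numbered tumours did not deviate together (r of -0.04, 0.02 and 0.08 across genes), so the numbers were not taken to pair the samples. With the replicate block, 486 genes were higher and 1002 lower at this p, 0 passed after adjustment and the median of the members was -0.03.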
